A study of Homo sapiens with 15 samples.

Results

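The 9 genes described here, of 60649 in the count table, encode enzymes that make the building blocks of DNA and RNA: TYMS, TK1 and DUT for thymidylate, RRM1, RRM2 and RRM2B for ribonucleotide reductase, CAD for pyrimidines, and PAICS and IMPDH2 for purines. They were chosen by name, with earlier results of these data known, and their symbols were matched to the Ensembl identifiers of the table. All 9 passed the filter on low counts. The data were poly(A) mRNA sequencing of K562, an established chronic myeloid leukaemia cell line with the BCR-ABL fusion. Of the 15 libraries, 3 came from untreated cells and 3 from each of 4 doses of martinostat, a histone deacetylase inhibitor, given for 24 h at 0.15 µM, 0.25 µM, 0.5 µM or 1 µM. The labels number biological replicates of this 1 line and give bone marrow as its source, and name no vehicle for the untreated cells.

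Cells make deoxynucleotides from ribonucleotides through ribonucleotide reductase, in which a large subunit, RRM1, pairs with a small subunit. RRM2 is the small subunit that serves DNA replication, and RRM2B, a p53 target, is the one used for DNA repair and mitochondrial DNA outside S phase. Thymidylate is made by the TYMS reaction from dUMP, which DUT supplies by breaking down dUTP, or is salvaged from thymidine by TK1. CAD starts de novo pyrimidine synthesis, PAICS carries out steps of de novo purine synthesis, and IMPDH2 is the rate-limiting enzyme towards guanine nucleotides. Several of these enzymes are drug targets in leukaemia and other cancers, and many of their genes are known to follow the cell cycle.

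The libraries held 23755510 to 32805574 counts. Levels are given as CPM, counts relative to library size after TMM scaling, a correction for library composition. The replicate 3 libraries at 0.25 and 0.5 µM stood apart: on the third principal component, with 4.47% of the variance, they scored 70.1 and 75.4 against at most 16.0 in the other 13, and values without them are given beside the members whose calls they change. Of 7 genes expected in K562, none was at 0 in any group, and their summed level was 2330 to 2630 CPM in the untreated libraries, 605 to 870 CPM at 0.5 µM and 749 to 901 CPM at 1 µM. CDKN2A and MTAP, which this line has lost, had 0 counts in the untreated libraries, as did the B cell gene MS4A1, and the 5 lymphoid, stromal and liver markers together came to 21 to 26.4 CPM there and to 301 to 482 CPM at 1 µM, mostly COL1A1.

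Against untreated cells, 8 of the 9 genes fell at 0.15 µM and 8 at 0.25 µM, the exception being TK1, and 5 fell at 0.5 µM and 5 at 1 µM. TYMS, DUT, RRM1, CAD and PAICS were lower at all 4 doses. RRM2, RRM2B and IMPDH2 were lower at the 2 low doses and were not called at the 2 high doses. No member was called higher at any dose with all libraries and TMM scaling over the 23711 genes tested. The test was edgeR's quasi-likelihood F test with Benjamini-Hochberg adjustment over 23711 genes, called at an adjusted p under 0.05. Over all genes tested, 19.4% were lower and 31.9% higher at 0.15 µM, 24.8% and 37.4% at 0.25 µM, 27.6% and 39.4% at 0.5 µM, and 27.5% and 38.8% at 1 µM. The median log2 fold change of the 9 genes was -1.13, -1.99, -1.73 and -1.63 in the order of dose, beside 0.28, 0.32, 0.34 and 0.32 for all genes tested. The 4 comparisons share the untreated libraries. In bulk RNA, fewer expressing cells and less RNA per cell cannot be told apart, and the p-values measure the spread between cultures of a single line.

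**Figure D1:**
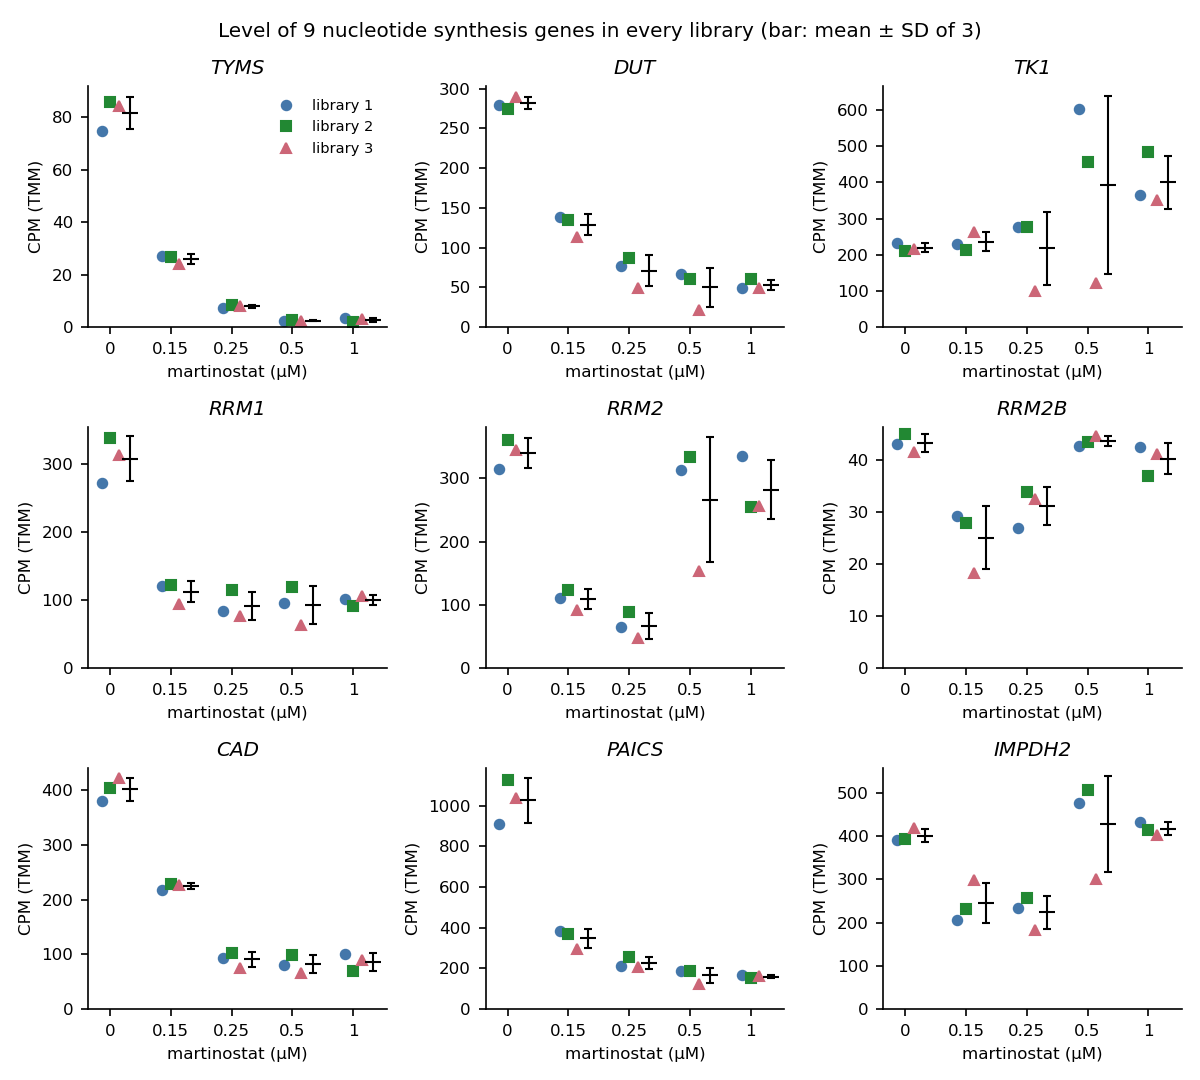
CPM after TMM scaling (vertical axis, linear from 0) of each of the 9 genes against martinostat dose in µM; each symbol is 1 library and the black mark is the mean ± SD of 3. TYMS, DUT, RRM1, CAD and PAICS stay below the untreated libraries at every dose, while RRM2 and IMPDH2 are low at 0.15 and 0.25 µM and high again at 0.5 and 1 µM.

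The scaling of the libraries bears on the genes near 0. TMM factors were 0.785 to 0.828 in the untreated libraries and 0.95 or above in the treated ones. With library totals alone, the median log2 fold change of all genes rose to 0.64, 0.84, 0.72 and 0.67, and the share of called genes that were higher at 1 µM went from 58.5% to 69.3% (at 0.15 µM, from 62.2% to 81.8%). TYMS, DUT, RRM1, CAD and PAICS were called lower against untreated cells at all 4 doses under each of the 26 alternatives, and RRM2 at 0.15 and 0.25 µM likewise. Calls of RRM2B, IMPDH2 and TK1 changed under some alternatives.

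The 5 genes that stayed low did not share a single course. TYMS (ENSG00000176890.16, chr18:657653-673578, plus strand, hg38) encodes thymidylate synthase, the target of fluorouracil. It was 74.8, 86.0 and 84.4 CPM in the untreated libraries, 27.2, 26.7 and 24.0 at 0.15 µM, 7.21, 8.36 and 8.18 at 0.25 µM, 2.16, 2.80 and 2.50 at 0.5 µM, and 3.44, 1.90 and 3.07 at 1 µM. The groups did not overlap from one dose to the next up to 0.5 µM. The log2 fold change against untreated was -1.65 ± 0.17 (SE, adjusted p = 2.16e-07), -3.37 ± 0.18 (2.91e-11), -5.03 ± 0.20 (3.25e-13) and -4.87 ± 0.20 (3.97e-13), so that TYMS stood 32.8-fold lower at 0.5 µM. The steps from 0.15 to 0.25 µM (-1.71 ± 0.17, adjusted p = 1.54e-05) and from 0.25 to 0.5 µM (-1.67 ± 0.19, adjusted p = 1.85e-06) were called, and the step to 1 µM was not (0.17 ± 0.20).

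TYMS counts have a limit. Of its exon bases, 47.9% lie under ENOSF1 and TYMSOS on the opposite strand, and how the counting used strand is not given in the sources used here. Where opposite-strand exons cover 95% or more of a gene's exon bases, as for 16 genes, no count was made in any library for 13 of them (81.2%), against 498 of 10499 genes (4.74%) that share no exon. ENOSF1 itself went from 57.9, 64.8 and 56.6 CPM in untreated cells to 17.4, 21.1 and 17.0 CPM at 1 µM, and TYMSOS was at 4.71 to 4.96 CPM untreated, higher at 0.15 µM (6.49 to 10.3 CPM) and 2.56 to 2.93 CPM at 1 µM. Pseudogenes held little: at most 1.21% of a member's counts, for RRM2P3.

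DUT (ENSG00000128951.14, chr15:48331011-48343373, plus strand) encodes the dUTPase that keeps uracil out of DNA. Its levels were 279, 275 and 290 CPM untreated, 138, 135 and 113 at 0.15 µM, 76.3, 87.3 and 49.4 at 0.25 µM, 67.4, 61.1 and 21.4 at 0.5 µM, and 48.8, 59.9 and 49.6 at 1 µM. Every treated library lay below every untreated one, and the replicate 3 libraries were lowest at 0.25 and 0.5 µM. The log2 fold changes were -1.13 ± 0.31, -1.99 ± 0.32, -2.50 ± 0.32 and -2.42 ± 0.32 (adjusted p = 0.00627, 5.71e-05, 5.42e-06 and 7.47e-06). No neighbouring doses differed in the fit of all libraries (adjusted p = 0.0836 from 0.15 to 0.25 µM), although without the replicate 3 libraries at 0.25 and 0.5 µM the step from 0.15 to 0.25 µM was -0.63 with adjusted p = 0.00229. DUT-AS1, an opposite-strand gene over 14.5% of the DUT exon bases, stood at 1.23 CPM untreated and 0.662 CPM at 1 µM.

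TK1 (ENSG00000167900.12, chr17:78174091-78187233, minus strand), the cytosolic thymidine kinase that salvages thymidine in dividing cells, did not fall. It stood at 233, 210 and 216 CPM untreated, 230, 214 and 264 at 0.15 µM, 276, 276 and 101 at 0.25 µM, 602, 456 and 121 at 0.5 µM, and 366, 483 and 352 at 1 µM. All 3 libraries at 1 µM lay above all untreated ones, but the replicate 3 libraries at 0.25 and 0.5 µM lay below them while their 2 partners lay above. With TMM scaling over the 23711 genes and all libraries, none of the 4 changes was called: 0.10, -0.01, 0.84 and 0.86 log2, each ± 0.46 SE, with 95% intervals of -0.17 to 1.84 at 0.5 µM and -0.14 to 1.87 at 1 µM. Without those 2 replicate 3 libraries TK1 was higher at 0.25 µM (0.35, adjusted p = 0.0485), 0.5 µM (1.31, adjusted p = 4.5e-08) and 1 µM (0.91, adjusted p = 2.78e-06). Leaving out the replicate 3 library at 0.5 µM alone was enough for a call at 0.5 µM (1.27, adjusted p = 0.00243) and 1 µM (0.86, adjusted p = 0.0144), and a fit of only the untreated and 1 µM libraries gave 0.93 (adjusted p = 5.25e-06). With all libraries kept, TK1 was also called higher at 0.5 and 1 µM with library totals (1.13 and 1.22, adjusted p = 0.0198 and 0.0138), TMM on genes of at least 10 CPM (1.20 and 1.25, adjusted p = 0.024 and 0.0207) and at least 10 counts in every library (1.08 and 1.10, adjusted p = 0.0338 and 0.0315), and at 1 µM with limma (1.15 and 1.20 with pseudocounts of 1 and 0.1, adjusted p = 0.0334 and 0.0302). In total, 5 of 26 alternatives called TK1 higher at 0.5 µM and 8 of 26 at 1 µM. At both doses 1 call was not made by DESeq2, RLE scaling, no filter or the replicate number as a block. The step from 0.25 to 0.5 µM was 0.96 (adjusted p = 0.000103) and the difference of 1 from 0.15 µM 0.80 (adjusted p = 2.96e-05) without both replicate 3 libraries, neither being called with them. At 0.25 µM the sign turned with the scaling, to 0.47 with library totals.

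Promoter words were searched in the members, and sequences are shown for TYMS, DUT, TK1 and RRM2. RefSeq promoter entries (GRCh38.p14) were matched for 7 of the 9 genes, RRM2B and IMPDH2 not being among them, in 14 windows of 250 bases before a transcript start. The words searched, on both strands, were the E2F words TTTCCCGC, TTTCGCGC, TTTGCCGC and TTTGGCGC, the E-box CACGTG, the word CCAAT, which the factor NF-Y binds, and the GC box GGGCGG. An E2F word was present in the TYMS window and in 1 of 4 DUT windows, and in none of the other members' windows, and in 2.79% of all 35116 windows. The 3 E2F matches are shown with their 30-base surroundings on the strand of the gene, the matched word in capitals (GCGGGAAA is TTTCCCGC read on the opposite strand), in the order TYMS chr18:657603-657632, DUT chr15:48332144-48332173 and DUT chr15:48332159-48332188, ending 31, 34 and 19 bases before the start:
TYMS E2F word: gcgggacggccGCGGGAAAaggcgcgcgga
DUT E2F word 1: gggcggggctgGCGGGAAAtttcggttttg
DUT E2F word 2: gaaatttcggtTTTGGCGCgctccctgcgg

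CCAAT was found 3 times in the window of the main RRM2 start and 2 times in that of the main TK1 start, once each in windows of RRM1, CAD and the upstream RRM2 start, and not in those of TYMS, DUT or PAICS. Of all windows, 32% held it at least once, 9.53% at least 2 times and 2.93% at least 3 times. The RRM2 copies lie at chr2:10122604-10122633, chr2:10122634-10122663 and chr2:10122661-10122690 on the plus strand, 118, 88 and 61 bases before the start, and the TK1 copies, read on the opposite strand as ATTGG, lie at chr17:78187112-78187141 and chr17:78187081-78187110, 72 and 41 bases before it. Word matches in the sites shown share no base with another searched word:
RRM2 CCAAT 1: ggcaaggcgcagCCAATgggaagggtcgga
RRM2 CCAAT 2: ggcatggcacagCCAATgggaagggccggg
RRM2 CCAAT 3: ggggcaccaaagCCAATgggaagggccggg
TK1 CCAAT 1: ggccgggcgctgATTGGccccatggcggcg
TK1 CCAAT 2: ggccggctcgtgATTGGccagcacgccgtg
The 3 RRM2 sites share the 15 bases agCCAATgggaaggg. No CACGTG was found in any member window, and GGGCGG, present in 42.6% of all windows, was found in windows of every matched member except TYMS. RRM1 and CAD, which fell at every dose, held CCAAT as well, and PAICS, which also fell, held neither CCAAT nor an E2F word. These are matches of letters, and binding was not measured. A relation of the words to the levels was not tested.

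The reductase genes split by subunit. RRM1 (ENSG00000167325.15, chr11:4094707-4138932, plus strand), the large catalytic subunit and a target of gemcitabine, fell at the lowest dose and stayed there. Its levels were 272, 337 and 313 CPM untreated, 120, 122 and 93.9 at 0.15 µM, 83.2, 115 and 76.7 at 0.25 µM, 96.0, 119 and 63.7 at 0.5 µM, and 101, 91.4 and 106 at 1 µM. All treated libraries were below all untreated ones and the treated groups overlapped each other. Log2 fold changes were -1.46, -1.75, -1.73 and -1.63, each ± 0.20 (adjusted p from 4.88e-07 to 7.76e-06). No pair of doses compared differed, and 1 against 0.15 µM gave -0.17, with a 95% interval of -0.58 to 0.25.

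RRM2 (ENSG00000171848.16, chr2:10120698-10211725, plus strand), the replicative small subunit, fell and came back. It was at 314, 360 and 345 CPM untreated, 111, 123 and 92.4 at 0.15 µM, 64.7, 88.7 and 47.5 at 0.25 µM, 313, 334 and 153 at 0.5 µM, and 335, 254 and 256 at 1 µM. The 6 libraries at the low doses were below all others, and the replicate 3 library at 0.5 µM was well below its partners. Log2 fold changes against untreated were -1.64 ± 0.26 (adjusted p = 4.51e-05) and -2.34 ± 0.26 (6.81e-07), then -0.35 ± 0.25 (0.227) and -0.27 ± 0.25 (0.357), the last turning to 0.08 with library totals and to 0.11 with TMM on genes of at least 10 CPM. Between 0.25 and 0.5 µM RRM2 rose by 1.99 ± 0.26 log2, 3.98-fold (adjusted p = 1.67e-05), and 1 µM exceeded 0.15 µM by 1.37 ± 0.26 (adjusted p = 0.000300). The step from 0.15 to 0.25 µM (-0.70 ± 0.25, adjusted p = 0.0817) was called under 5 of 26 alternatives. It was called without both replicate 3 libraries (-0.48, adjusted p = 0.0332), without replicate 2 at 0.25 µM (0.0352) or replicate 3 at 0.5 µM (0.00942). No filter (0.000487) and the replicate number as a block (0.0304) also gave a call. Both rises were called under every alternative, at 1.09 to 2.27 and 0.90 to 1.49.

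RRM2B (ENSG00000048392.12, chr8:102204502-102238961, minus strand), the other small subunit, moved less. Its levels were 43.0, 45.0 and 41.6 CPM untreated, 29.2, 27.9 and 18.2 at 0.15 µM, 27.0, 33.9 and 32.5 at 0.25 µM, 42.7, 43.5 and 44.7 at 0.5 µM, and 42.5, 36.9 and 41.2 at 1 µM. The low-dose libraries were all below the untreated ones, and the high-dose libraries overlapped them. The log2 fold changes were -0.78 ± 0.16 (adjusted p = 0.000448), -0.47 ± 0.16 (0.0147), 0.01 ± 0.16 (0.945) and -0.10 ± 0.16 (0.581). These small values depend on the scaling: with library totals the changes were -0.42 (adjusted p = 0.0781) at 0.15 µM, 0.05 at 0.25 µM and 0.25 at 1 µM, none called. The call at 0.15 µM was also lost with limma (-0.20 and -0.40 with pseudocounts of 1 and 0.1). The call at 0.25 µM was also lost with limma (0.02 and 0.04), TMM on genes of at least 10 CPM (-0.05), at least 10 counts in every library (-0.21) and without replicate 1 at that dose (-0.38, adjusted p = 0.0695). With TMM on genes of at least 10 CPM RRM2B was higher at 0.5 µM (0.43, adjusted p = 0.0279). The rise from 0.25 to 0.5 µM (0.49 ± 0.16, adjusted p = 0.0257) lost its call under 7 of 27 alternatives, including the fits without replicate 1 at 0.25 µM (adjusted p = 0.113) or without replicate 1 or 2 at 0.5 µM (0.0503 and 0.0601), and that of 1 against 0.15 µM (0.68 ± 0.16, adjusted p = 0.00181) under none.

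Ratios of 2 genes inside a library do not depend on how libraries are scaled. The level of a ratio, though not its change between groups, depends on the gene lengths used. With the main transcript in place of all exon bases, untreated RRM2 and RRM1 were at 104 and 97.8 CPM per kb and overlapped. Per exon base, RRM2 over RRM1 was 0.533, 0.494 and 0.511 in the untreated libraries, 0.431, 0.467 and 0.455 at 0.15 µM, 0.359, 0.357 and 0.286 at 0.25 µM, 1.51, 1.29 and 1.11 at 0.5 µM, and 1.53, 1.28 and 1.12 at 1 µM. The low-dose libraries were below and the high-dose libraries above every untreated library, with log2 differences of -0.19, -0.62, 1.33 and 1.34. RRM2B over RRM2 was 0.204 to 0.233 untreated, 0.334 to 0.445 at 0.15 µM and 0.649 to 1.16 at 0.25 µM, above the untreated libraries at both doses, and 0.221 to 0.497 at 0.5 µM and 0.215 to 0.273 at 1 µM, where the groups overlapped. TK1 over TYMS rose from 3.21 to 4.09 untreated to 10.5 to 14.5, 16.2 to 50.3, 63.4 to 366 and 140 to 334 in the order of dose, with no overlap with the untreated libraries, and the log2 difference was 5.59 at 0.5 µM (6.31 without replicate 3 at that dose) and 5.76 at 1 µM. Each of the 10 differences without overlap had an exact two-sided permutation p of 0.1, the smallest that 3 against 3 libraries allow, and an adjusted p of 0.12 over the 12 tests, so none could pass 0.05. The opposite-strand overlap of TYMS enters the level of the last ratio.

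**Figure D2:**
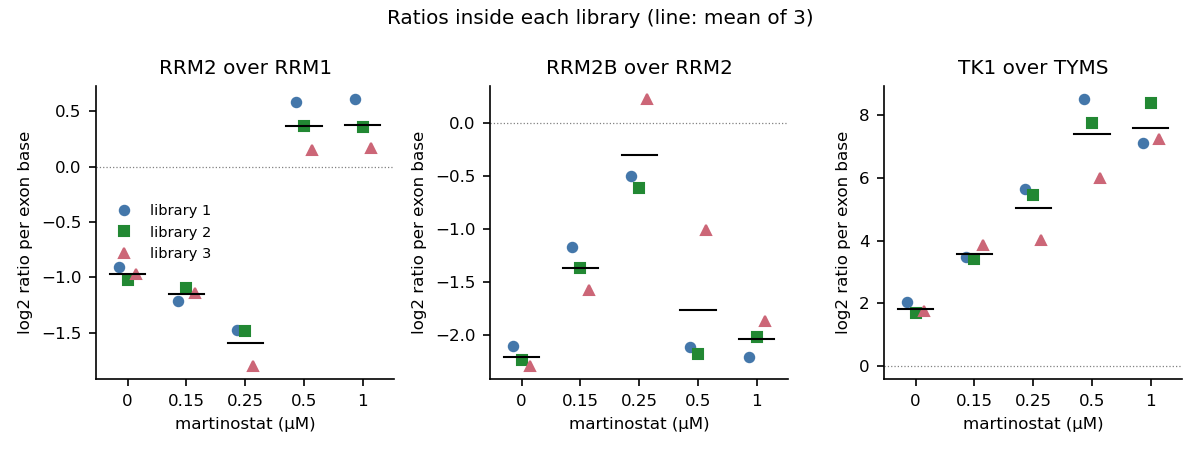
Log2 of the ratio of counts per exon base between 2 genes of the same library (vertical axis) against martinostat dose in µM; symbols are libraries and lines are means of 3. RRM2 over RRM1 is below 0 in the untreated and low-dose libraries and above 0 in all 6 libraries at 0.5 and 1 µM. Where 0 lies depends on the length used for each gene. TK1 over TYMS goes from a mean of 1.82 to 7.58.

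CAD (ENSG00000084774.14, chr2:27217369-27243943, plus strand) encodes the trifunctional enzyme that opens pyrimidine synthesis. It stood at 379, 404 and 421 CPM untreated, 218, 228 and 227 at 0.15 µM, 93.1, 103 and 75.3 at 0.25 µM, 79.7, 99.1 and 66.0 at 0.5 µM, and 100, 68.8 and 89.4 at 1 µM. The untreated, 0.15 µM and higher doses formed separate levels, and the 3 highest doses overlapped. The log2 fold changes were -0.84 ± 0.17, -2.15 ± 0.18, -2.30 ± 0.18 and -2.22 ± 0.18 (adjusted p = 0.000406, 5.88e-09, 1.40e-09 and 2.17e-09). The step from 0.15 to 0.25 µM, -1.31 ± 0.17 with adjusted p = 0.000126, was called under every alternative.

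PAICS (ENSG00000128050.9, chr4:56435741-56464578, plus strand), a bifunctional enzyme of de novo purine synthesis, was the member with the most counts. Its levels were 911, 1129 and 1038 CPM untreated, 384, 367 and 294 at 0.15 µM, 214, 258 and 207 at 0.25 µM, 188, 187 and 122 at 0.5 µM, and 166, 152 and 161 at 1 µM. Each group up to 0.5 µM lay wholly below the one before. Log2 fold changes of -1.56, -2.18, -2.63 and -2.68, each ± 0.18, had adjusted p from 2.91e-10 to 7.17e-07. The step from 0.15 to 0.25 µM was -0.62 ± 0.17 (adjusted p = 0.0244), which 5 of 26 alternatives lost, 4 of them fits without 1 library: replicate 1 or 2 at 0.15 µM (adjusted p = 0.095 and 0.0793) or replicate 1 or 3 at 0.25 µM (0.0737 and 0.0763). That from 0.25 to 0.5 µM was -0.45 ± 0.17 (adjusted p = 0.0591), and was called under 9 of 27 alternatives, among them the fit without replicate 3 at 0.15 µM (0.0424).

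IMPDH2 (ENSG00000178035.13, chr3:49024325-49029447, minus strand), which commits IMP to guanine nucleotides and is the target of mycophenolate, followed the course of RRM2 in smaller steps. It was at 391, 393 and 419 CPM untreated, 207, 232 and 298 at 0.15 µM, 235, 256 and 182 at 0.25 µM, 477, 508 and 301 at 0.5 µM, and 433, 415 and 404 at 1 µM. The low-dose libraries were all below the untreated ones, and the replicate 3 library at 0.5 µM was the only high-dose library below them. Log2 fold changes were -0.71 ± 0.19 (adjusted p = 0.00426), -0.84 ± 0.19 (0.000846), 0.10 ± 0.19 (0.671) and 0.06 ± 0.19 (0.802). At the 2 high doses the change was called higher with library totals (0.44 and 0.41), TMM on genes of at least 10 CPM (0.49 and 0.44) and limma on FPKM (0.42 and 0.40 with a pseudocount of 1), at 0.5 µM also without both replicate 3 libraries (0.33, adjusted p = 0.0329), and at 0.5 µM it turned to -0.05 without the second library at that dose. The rises from 0.25 to 0.5 µM (0.93 ± 0.19, adjusted p = 0.000931) and from 0.15 to 1 µM (0.77 ± 0.19, adjusted p = 0.00283) were called under every alternative. In the later annotation used here, 32.8% of its exon bases also lie under a same-strand gene model.

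**Figure D3:**
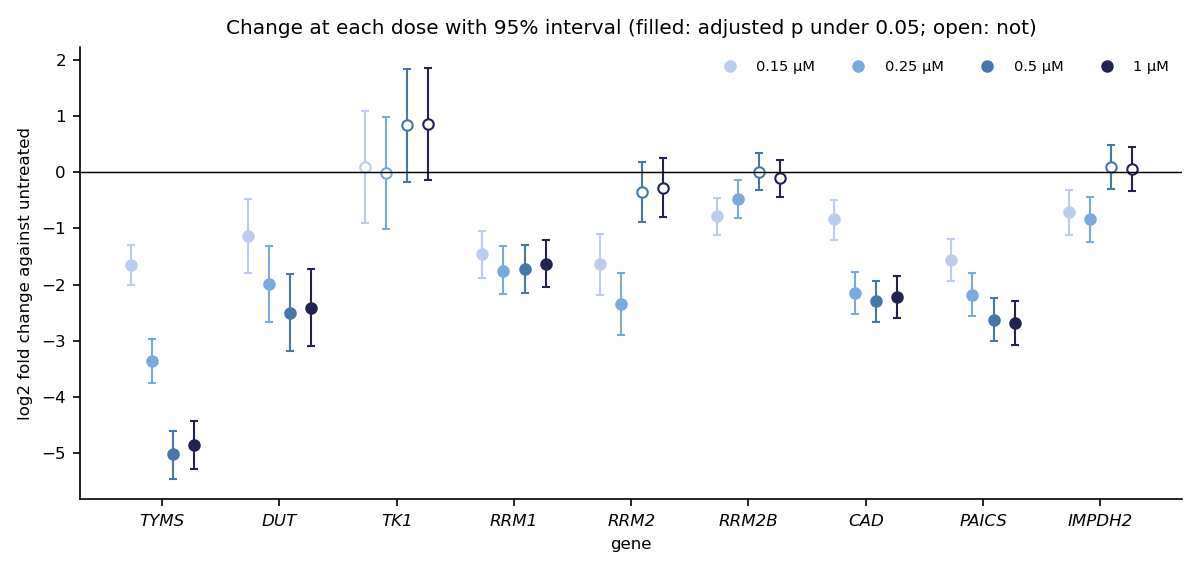
Log2 fold change of each of the 9 genes against untreated cells at 4 doses (vertical axis), points with 95% intervals from the edgeR fit; filled points have an adjusted p under 0.05. TYMS reaches -5.03, the values of RRM2, RRM2B and IMPDH2 are close to 0 at 0.5 and 1 µM, where their sign or call depends on the scaling, and those of TK1 have the widest intervals.

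Between neighbouring doses, the members moved at 2 steps. From 0.15 to 0.25 µM, 3 fell (TYMS, CAD and PAICS) and none rose, where 7.32% of all genes tested were lower and 4.96% higher. Without the replicate 3 library at 0.5 µM, or without both replicate 3 libraries, 5 fell, with RRM2 and DUT added. In the fit without both, 8.78% of all genes tested were lower and 6.57% higher. From 0.25 to 0.5 µM, 1 fell (TYMS) and 3 rose (RRM2, RRM2B and IMPDH2), against 16.0% lower and 14.4% higher over all genes. The replicate 3 libraries of these 2 doses stood apart together, and a pairing of the other replicates was not shown. With the replicate number as a block in these 6 libraries alone, 3 fell (TYMS, DUT and PAICS). In that fit 4 rose, the 3 above and TK1, at 0.69 with adjusted p = 0.000785. Of all genes tested in it, 23.5% were lower and 22.6% higher. From 0.5 to 1 µM none of the 9 was called in either direction, and neither was any gene of the 23711 (0% by edgeR and by DESeq2, with 372 genes and 445 genes at an unadjusted p under 0.05, while limma on FPKM called 1). At 1 against 0.15 µM, 4 were lower (TYMS, DUT, CAD and PAICS) and 3 higher (RRM2, RRM2B and IMPDH2), against 23.1% and 21.5% of all genes.

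The order of the levels per length changed with treatment. In CPM per kb of the main transcript, IMPDH2 was highest in untreated cells at 243 ± 9.14 (SD, n = 3), followed by PAICS at 161 ± 17.1, TK1 at 154 ± 8.53, DUT at 132 ± 3.6, RRM2 at 104 ± 7.31, RRM1 at 97.8 ± 10.5, CAD at 55.1 ± 2.89, TYMS at 50.7 ± 3.72 and RRM2B at 9.05 ± 0.358. PAICS and TK1, RRM2 and RRM1, and CAD and TYMS overlapped. At 1 µM the order was TK1 at 279 ± 50.3, IMPDH2 at 253 ± 9.64, RRM2 at 86.5 ± 14.4, RRM1 at 31.6 ± 2.31, PAICS at 25 ± 1.1, DUT at 24.6 ± 2.9, CAD at 11.8 ± 2.21, RRM2B at 8.42 ± 0.627 and TYMS at 1.74 ± 0.5. There TK1 and IMPDH2, and PAICS and DUT, overlapped, and TYMS had gone below RRM2B. With 47.9% of its exon bases under opposite-strand genes, the TYMS level may be too low, and its place in either order is uncertain.

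Across the 15 libraries, which share their doses, TYMS, DUT, CAD, PAICS and RRM1 were correlated with each other at Pearson r of 0.799 to 0.957 in log2 CPM, RRM2 with IMPDH2 at 0.922 and with RRM2B at 0.724, and TK1 with no member at more than 0.667. Among 10124 genes of at least 10 CPM, the genes whose levels were most like those of a member were HK2 and CAPN15 for TYMS (r = 0.996 and 0.995), MRPS16 and NLE1 for DUT (both 0.994), GALNT2 and AKT1 for CAD (both 0.993), GRSF1 and ATP5PB for PAICS (0.996 and 0.995) and IPO5 and USP10 for RRM1 (0.991 and 0.989). For the other 4 they were PI4KB and ACLY for RRM2 (0.985 and 0.981), ZNF28 and CDK13 for RRM2B (0.978 and 0.962), GTF2F1 and PSMD2 for IMPDH2 (0.988 and 0.987) and VKORC1 and UBE2S for TK1 (0.973 and 0.970).

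The other genes of nucleotide metabolism, 45 of them in 6 role lists, mostly fell as well. MTAP did not pass the filter, and of the 44 others 27, 31, 33 and 32 were lower and 5, 5, 7 and 7 higher in the order of dose. Over all genes tested, 19.4%, 24.8%, 27.6% and 27.5% were lower and 31.9%, 37.4%, 39.4% and 38.8% higher. The median log2 fold changes of the 44 were -0.66, -1.23, -1.42 and -1.48. Synthesis genes were nearly uniform. All 7 of the other de novo purine genes were lower at all 4 doses, and at 1 µM they ranged from ADSL, which acts at 2 steps of the purine pathway (-1.32), to PFAS (-3.01), which went from 307, 286 and 308 CPM to 39.4, 31.5 and 41.2. All 7 of the other pyrimidine genes were lower at 1 µM, from UMPS, which makes UMP (-1.43), to CTPS2, a CTP synthase (-2.93). In the thymidylate list 4 of 5 were lower, with DCTD, the dCMP deaminase that feeds dUMP to TYMS, at -2.79, and SHMT1, a folate-cycle enzyme, at -0.31 without a call, a value that turned to 0.04 with library totals.

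The purine branch and the breakdown genes did not all move one way. Of 6 other branch genes at 1 µM, 4 were lower, GMPS, the step after IMPDH2, furthest at -2.25, and ADSS1, the muscle-type adenylosuccinate synthase, was higher (1.68 ± 0.29, adjusted p = 5.08e-05), from 2.70, 4.05 and 3.44 CPM to 13.2, 9.63 and 9.93 CPM. Of 9 salvage genes 7 were lower, the uridine kinase UCK2 furthest at -2.88, and PNP, purine nucleoside phosphorylase, was higher by 0.38 ± 0.14 (adjusted p = 0.0206), a call lost without untreated replicate 1 or 3 or replicate 1 at 1 µM (adjusted p = 0.0604, 0.085 and 0.0672). Among 10 breakdown genes 3 were lower, NT5M, a mitochondrial nucleotidase, furthest at -1.57, and 5 were higher. The 5 were SAMHD1, which hydrolyses deoxynucleotides (0.93), the uridine phosphorylase UPP1 (1.32), XDH, DPYD and CDA. These counts are near the shares over all genes tested at 1 µM, 27.5% lower and 38.8% higher. CDA, cytidine deaminase, had 0 counts in the untreated libraries and 356 at 1 µM, and was at least 105-fold higher there, with a floor of 3 counts over the untreated group. DPYD, which degrades uracil and fluorouracil, went from 0.0817, 0 and 0.156 CPM to 3.26, 2.38 and 2.58 CPM. For XDH the untreated group held 4 counts and the 1 µM group 52. CDA, DPYD and XDH, with 0, 6 and 4 counts in the untreated group, passed the filter only through treated libraries. A call of lower was therefore not open to them.

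**Figure D4:**
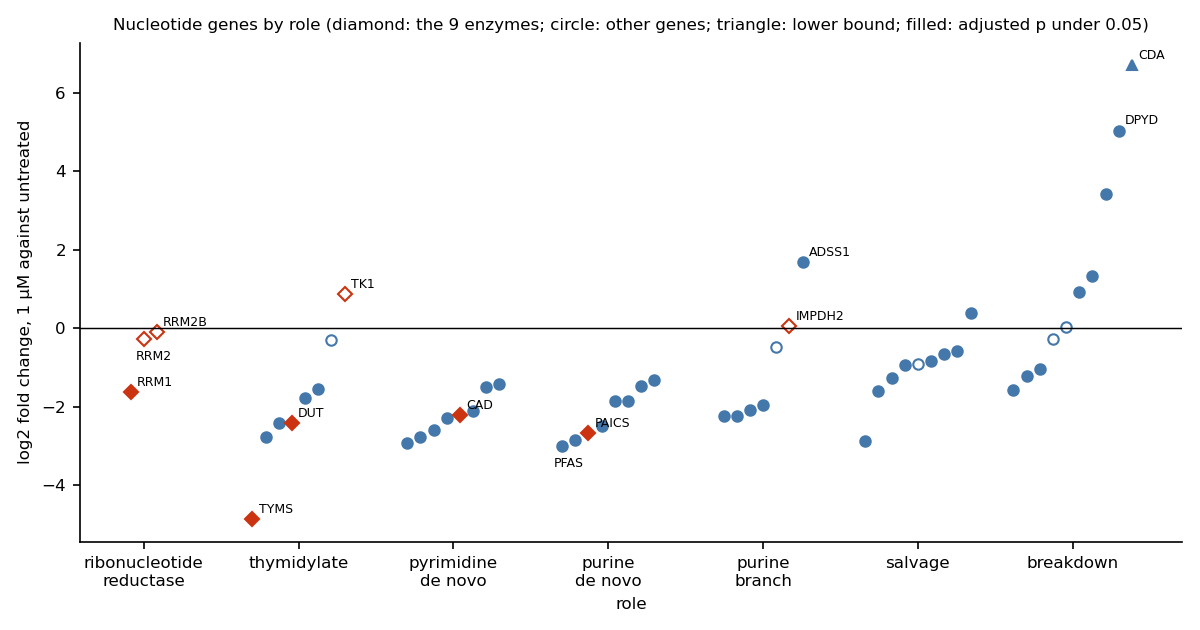
Log2 fold change at 1 µM against untreated cells (vertical axis) of the 9 enzymes (diamonds) and 44 other nucleotide genes by role; filled symbols have an adjusted p under 0.05, and the triangle is the lower bound for CDA, with 0 untreated counts. All pyrimidine and de novo purine genes are filled and below -1. Of 10 breakdown genes 5 are filled and above 0, where 38.8% of all genes tested were higher. CDA, DPYD and XDH among them passed the filter only through treated libraries.

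Replication and proliferation genes moved beside these results. Of 16 S phase markers, among them MKI67, PCNA and the MCM genes, 12, 16, 15 and 15 were lower than untreated in the order of dose and none higher. Over all genes tested, 19.4%, 24.8%, 27.6% and 27.5% were lower and 31.9%, 37.4%, 39.4% and 38.8% higher. The median log2 fold changes of the 16 markers were -1.0, -2.09, -1.70 and -1.62. Their summed level was 5550 to 5960 CPM untreated, 2998 to 3440 at 0.15 µM, 1317 to 1750 at 0.25 µM, 1005 to 1940 at 0.5 µM and 1649 to 1783 at 1 µM. From 0.25 to 0.5 µM 6 of the 16 were higher and 2 lower, where 14.4% of all genes tested were higher and 16.0% lower. Without both replicate 3 libraries 9 were higher, without replicate 3 at 0.5 µM alone 10, and without replicate 3 at 0.25 µM or replicate 1 or 2 at 0.5 µM 2. With limma 3 were higher, and with only the libraries compared 2. Over all genes tested, 15.4% were higher without both replicate 3 libraries and 10.3% with only the libraries compared. With limma the shares were 12% and 11.6% (pseudocounts of 1 and 0.1). PCNA went from 75.8, 87.4 and 56.3 CPM to 122, 129 and 75.6 CPM, where it had been 295, 322 and 313 CPM untreated. None was at 0 in any group. Their part in the levels of the 9 enzymes was not tested.

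**Figure D5:**
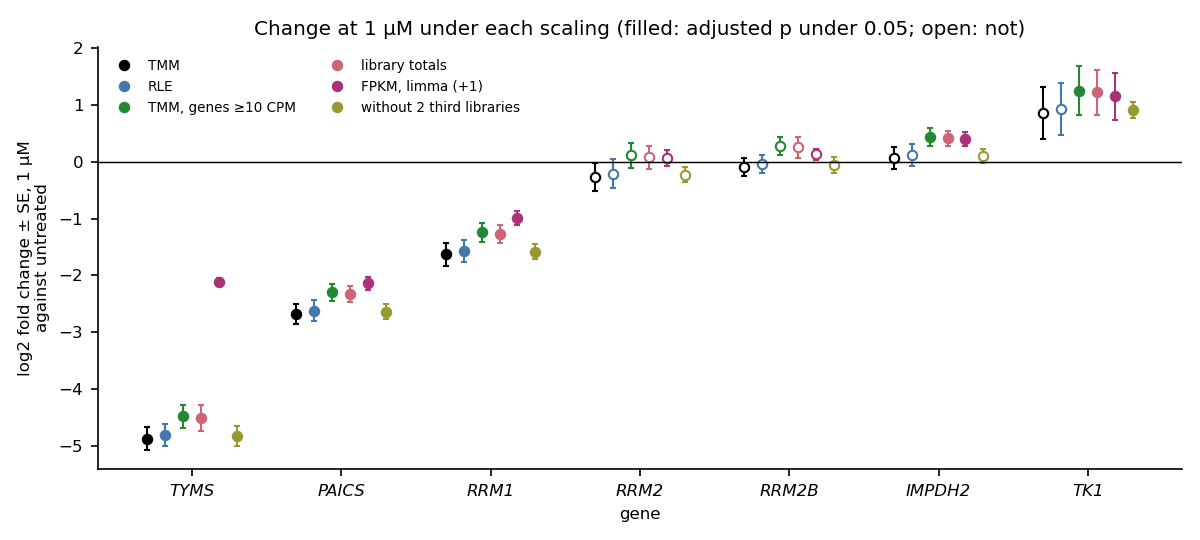
Log2 fold change ± SE at 1 µM against untreated cells (vertical axis) for 7 of the genes under 6 ways of scaling or choosing libraries (colours); filled points have an adjusted p under 0.05. TYMS, PAICS and RRM1 are below 0 and filled throughout, RRM2 and RRM2B lie on either side of 0 and are never filled, and IMPDH2 and TK1 are filled under some settings, 3 and 4 of the 6.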

How the data were processed

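The authors selected poly(A) RNA from K562 cells, prepared directional libraries and sequenced paired ends. Per the labels and the study's methods, reads were trimmed with Trim Galore 0.6.10 and Trimmomatic, aligned to hg38 with HISAT2 2.2.1, handled with SAMtools 1.21 and counted per gene with featureCounts 1.5.3 against GENCODE. The deposited count table held raw counts of 60649 genes. The deposited FPKM tables, 1 per library, were computed by the authors, carry no composition correction and were used only in alternatives.

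Symbols were found for 60507 identifiers (99.8%). The tests ran in R 4.3.3 with edgeR 4.0.16: filterByExpr, TMM, all 15 libraries in 1 fit (BCV 0.228, 10.0 residual degrees of freedom), robust quasi-likelihood F tests and Benjamini-Hochberg adjustment over the 23711 genes kept, on library sizes from all genes. The steps were tested on simulated data. Ratios were tested with SciPy by exact permutation. Alternatives used DESeq2 1.42.0, limma 3.58.1 on log2(FPKM + 1) and log2(FPKM + 0.1), other scalings and filters, only the libraries compared, a replicate block, and libraries left out. Positions come from GENCODE v44, so overlaps may differ from the annotation counted.

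The 9 genes, the role lists and the tests were chosen with earlier results of these data known. Of each role list, the other genes with the highest and lowest change at 1 µM were named, and for each of the 9 the 2 genes with the highest r of log2 CPM (prior count 2); other genes named were chosen after their values were seen. Groups and replicate numbers come from the labels. The numbers were taken to pair libraries only between 0.25 and 0.5 µM, a reading of the values and not a label. Same-numbered libraries there deviated from their group means together over genes (r = 0.266, 0.268 and 0.579 for replicates 1, 2 and 3). Between other groups r was at most 0.0918. Deviations from a mean of 3 are tied to each other, and the replicate 3 libraries stood apart at both doses. The r of replicates 1 and 2 therefore cannot show a pairing of their own. Differently numbered libraries were not compared. Depth limits low genes most: TYMS, the least counted member at the high doses, had 49 to 97 counts per library there. Protein sequences were not used here.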

Additional observations from a re-analysis of the deposited data

How the results depend on the processing

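Against untreated cells, the calls of TYMS, DUT, RRM1, CAD and PAICS at 4 doses, and of RRM2 and IMPDH2 at 0.15 and 0.25 µM, kept their direction and their side of the threshold under all 26 alternatives. The number of members called higher at 0.5 and 1 µM was 0 and 0, and became 2 and 2 with library totals, 3 and 2 with TMM on genes of at least 10 CPM, 1 and 1 with at least 10 counts in every library, and 1 and 2 with limma on log2(FPKM + 1) or log2(FPKM + 0.1). Over all genes, 46.8% and 45.6% were higher at these doses with library totals and 48.0% and 46.8% with TMM on genes of at least 10 CPM. With at least 10 counts in every library the shares were 35.6% and 34.5%. They were 38.1% and 36.6% with limma on log2(FPKM + 1), and 41.1% and 40.2% on log2(FPKM + 0.1). The members' number was 1 at 1 µM with only the libraries compared, 1 at 0.25 µM, 2 at 0.5 µM and 1 at 1 µM without both replicate 3 libraries, and 0 to 1 at 0.5 and 1 µM over the fits without 1 library. Of all genes, 43.1% were higher at 1 µM with only the libraries compared. Without both replicate 3 libraries the shares were 37.5%, 38.5% and 41.4% at 0.25, 0.5 and 1 µM. Shares for the fits without 1 library were not computed. Members called lower from 0.25 to 0.5 µM numbered 3 with library totals and limma, and 2 with TMM on genes of at least 10 CPM, no filter and at least 10 counts (1 to 2 over the fits without 1 library). Of all genes, 19.1% were lower with library totals, and 20.2% and 20.5% with limma (pseudocounts of 1 and 0.1). In the other 3 settings, in the order given, 15.9%, 7.64% and 22% were lower. From 0.15 to 0.25 µM members called lower numbered 5 with no filter and without both replicate 3 libraries (2 to 5 without 1 library). Of all genes, 4.03% were lower at this step with no filter and 8.78% without both replicate 3 libraries.

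With the replicate number as a block over all 15 libraries, members called lower numbered 5 from 0.15 to 0.25 µM and 2 from 0.25 to 0.5 µM, and 3 in the replicate block of the 6 libraries at 0.25 and 0.5 µM, an alternative chosen after seeing the data. The other counts of members and of other genes stayed within 1.5 times. Of all genes, 7.47% and 15.9% were lower at these steps with the block over 15 libraries, and 23.5% in the block of 6.

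Of the other nucleotide genes, 8 were higher at 0.25 µM with library totals and with TMM on genes of at least 10 CPM, 8 at 0.15 µM with limma on log2(FPKM + 0.1), and 3, 3, 4 and 4 in the order of dose with at least 10 counts in every library, a filter that removes genes absent from untreated cells. Over all genes tested, 49.3% and 47.2% were higher at 0.25 µM with library totals and with TMM on genes of at least 10 CPM. With limma on log2(FPKM + 0.1) 31.1% were higher at 0.15 µM. With at least 10 counts in every library the shares were 27.9%, 32.6%, 35.6% and 34.5% in the order of dose.

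Several values near 0 turned their sign. TK1 at 0.25 µM was 0.03 with RLE size factors and with DESeq2, 0.47 with library totals, 0.38 with TMM on genes of at least 10 CPM, 0.24 with at least 10 counts, 0.35 and 0.37 with limma (pseudocounts 1 and 0.1), 0.05 with only the libraries compared, 0.35 without both replicate 3 libraries, and -0.22 to 0.35 without 1 library. At 1 µM, in the order library totals, TMM on genes of at least 10 CPM and limma with 1 and 0.1, RRM2 was 0.08, 0.11, 0.06 and 0.07, RRM2B 0.25, 0.28, 0.13 and 0.23 (0.14 with at least 10 counts), and SHMT1 0.04, 0.07, 0.02 and 0.04. RRM2 at 0.5 µM was 0.03 with TMM on genes of at least 10 CPM. RRM2B at 0.25 µM, called lower, was 0.05 with library totals and 0.02 and 0.04 with limma, and at 0.5 µM lay between -0.02 and 0.06 without 1 library. IMPDH2 at 0.5 µM lay between -0.05 and 0.29 without 1 library. The cause was not tested.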
